A study of Homo sapiens with 16 samples.

Results

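The 33 genes described here encode the enzymes that cut the extracellular matrix and the cell surface, together with their inhibitors. They comprise 20 matrix metalloproteinase (MMP) genes, 4 tissue inhibitor of metalloproteinases (TIMP) genes and 9 genes of the ADAM family (a disintegrin and metalloproteinase), taken by symbol out of the 20046 protein-coding genes of the annotation. All 33 symbols matched 1 protein-coding gene each. For each gene, the regions whose H3K27ac signal changed upon inhibition of O-GlcNAc transferase (OGT) were collected at 3 distances, which are within 2500 bp of the 5′ end, anywhere in the gene body, and within 100 kb of the 5′ end. The 5′ end is the outermost transcription start annotated for the gene.

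MMPs are zinc enzymes, mostly secreted as inactive precursors, that degrade collagens, gelatin, elastin and proteoglycans, and a membrane-type group stays anchored at the cell surface. TIMPs bind the active site of MMPs and of several ADAMs and block them. ADAMs are transmembrane proteins, many of which release the outer domains of growth factors, cytokines and receptors, a step called shedding. In the liver, activated hepatic stellate cells with a myofibroblastic phenotype (MF-HSCs) are a main source of both matrix and matrix-degrading enzymes, and the balance of MMPs and TIMPs is one of the determinants of whether scar matrix is removed.

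H3K27ac is a histone acetylation found at active promoters and enhancers, and was measured by ChIP-seq in LX-2, an immortalized line of human hepatic stellate cells. Control cultures received DMSO as vehicle, while OGTi cultures received OSMI-1, which inhibits OGT, at 50 µM. Exposure lasted 24 h in both arms, and each arm had 4 replicates. The other 8 of the 16 samples are input DNA and column purified chromatin libraries. They were not used here, apart from the input DNA against which the authors called the H3K27ac peaks. The result deposited for the comparison is a pair of lists, 3507 regions that lost and 3623 regions that gained H3K27ac under OGTi, which hold positions only. No signal, fold change, p-value, depth or replicate value stands behind a region in them, so that the size of a change and its error cannot be given, no comparison below carries a test, and a gene without a listed region may carry unchanged H3K27ac or none. A single cell line was studied, and RNA levels of the genes were not analysed here.

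In all, 49 listed regions lay in the body of a member gene or within 100 kb of its 5′ end, 24 of them lost and 25 gained. One gained region was counted for both MMP7 and MMP20. Of the 49, 21 lay in a gene body or within 2500 bp of a 5′ end, of which 13 were lost and 8 gained.

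The sequences shown first are matches to the TEAD motif in lost regions within the genes, since TEAD factors, the DNA-binding partners of YAP1, are known regulators of myofibroblast genes. The motif was searched on both strands as CATTCC preceded by A or G and followed by A or T. Each line gives hg38 sequence of the plus strand from 5′ to 3′ with the match in capitals, so that a match to the minus strand reads GGAATG at its core. The coordinates in the lines are those of the match. Together with ADAM33, shown next, they are 9 of the 10 TEAD matches in such regions, and the remaining one is in ADAM9, for which no sequence is shown.
MMP2 intron 11, chr16:55499878-55499885: tggtatccccACATTCCTtccatggctg
MMP2 exon 12, chr16:55502837-55502844: cgcagatgccTGGAATGCcatccccgat
TIMP3 intron 1, chr22:32802475-32802482: tcccaaaactTGGAATGCtaactaaagt
TIMP3 intron 1, chr22:32803636-32803643: acctccacccACATTCCActtacccttt
ADAM12 intron 3, chr10:126215941-126215948: ctttatgcttGCATTCCTtgaagacatc
ADAM12 intron 3, chr10:126216691-126216698: tttgaccattTGGAATGTtgaatgtata
ADAM12 intron 3, chr10:126255084-126255091: cagctttgggGCATTCCTgtcgtgagcc

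ADAM33 held 2 TEAD matches close together and an AP-1 match (TGACTCA or TGAGTCA) in intron 1, and the stretch of 254 bases that carries them is shown whole, with these matches and 1 SP/KLF match in capitals. It lies at chr20:3680209-3680462 and is given on the plus strand, whereas the gene is on the minus strand.
ADAM33 intron 1, lost: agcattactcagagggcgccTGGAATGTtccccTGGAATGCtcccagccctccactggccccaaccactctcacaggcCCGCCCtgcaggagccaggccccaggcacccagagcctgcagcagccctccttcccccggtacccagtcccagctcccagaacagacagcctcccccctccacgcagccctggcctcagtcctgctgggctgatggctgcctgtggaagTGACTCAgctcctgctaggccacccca

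At the MMP cluster of chromosome 11 the only changes were gained regions, and their AP-1 matches are shown because AP-1 (FOS and JUN factors) is the classical regulator of these genes. The first 3 lines are intron 6 of MMP20, and the last is the stretch of 116 bases upstream of MMP13 that holds a TEAD and an AP-1 match, at chr11:102995223-102995338.
MMP20 intron 6, chr11:102599440-102599446: tgacctcgtgTGAGTCAttcaattttt
MMP20 intron 6, chr11:102599780-102599786: tagttcatgaTGAGTCAgaagccaaga
MMP20 intron 6, chr11:102600038-102600044: gaaatgacaaTGAGTCAgggatgttac
MMP13 upstream, gained: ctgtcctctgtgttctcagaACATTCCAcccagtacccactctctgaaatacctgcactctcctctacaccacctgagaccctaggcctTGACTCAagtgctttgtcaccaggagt

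Lost regions were found in the bodies of 8 of the 33 genes (24.2%), MMP2, MMP15, MMP24, TIMP3, ADAM9, ADAM12, ADAM19 and ADAM33. Among all protein-coding genes, 6.66% had a lost region in the body. Gained regions lay in the bodies of 4 members (12.1%), MMP11, MMP20, TIMP2 and ADAM9, where 10.9% of protein-coding genes had one, so that the gained share was near the background and the lost share was above it. With the 9 clustered genes of chromosome 11 counted as 1 locus, the shares in the body were 8 of 25 loci (32%) for lost and 4 (16%) for gained regions. ADAM9 was the only member with both. The bodies of the 33 genes sum to 1.89 Mb and held 6.88 lost and 4.23 gained regions per Mb, against 1.55 lost and 2.21 gained per Mb over all protein-coding genes. Longer genes have more room for a region, and the 11 members with a region in the body had a median length of 61.3 kb whereas the 22 without had 12.6 kb. The median length over all 33 was 15.3 kb, and over all protein-coding genes 27.4 kb. The part of gene length in the shares was not tested.

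At the 5′ ends the same lean appeared on small counts. Lost regions came within 2500 bp of the 5′ end of 3 members (9.09%), MMP15, TIMP3 and ADAM33, where the share of all protein-coding genes was 2.02%. A gained region did so for MMP11 alone (3.03%), where the share of all protein-coding genes was 6.39%. Over the 25 loci these shares were 12% and 4%. Within 100 kb both shares were above those of all protein-coding genes. Lost regions were found there for 11 members (33.3%, against 20.4% of protein-coding genes) and gained regions for 14 (42.4%, against 29.5%). Over the loci, 11 of 25 (44%) had a lost and 12 (48%) a gained region within 100 kb.

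**Figure D1:**
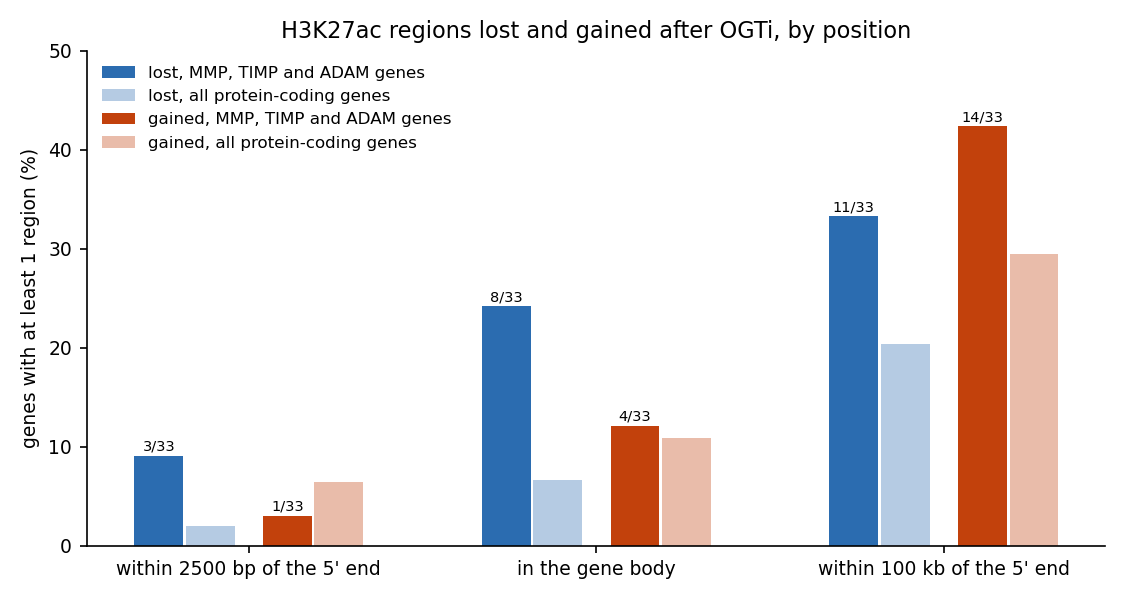
Share of genes (%, vertical axis) with at least 1 lost (blue) or gained (orange) region at each of the 3 distances, for the 33 genes (dark bars, counts above) and all 20046 protein-coding genes (pale bars). The widest gap is that of lost regions in the gene body, 24.2% against 6.66%.

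The regions within 100 kb differed in what else they lay next to. Of the 25 gained regions, 11 (44%) were within 2500 bp of a protein-coding 5′ end, and for 10 of these it was the 5′ end of a gene outside the set. Of the 24 lost regions, 4 (16.7%) were, and 3 of these were at the members MMP15, TIMP3 and ADAM33 themselves. Over the whole lists the shares were 31% of gained and 11.3% of lost regions, so that the members' regions had the direction of this contrast in common with all others. The member's own 5′ end was the nearest protein-coding one for 10 lost and 5 gained regions. Counting only such regions, 7 members kept a lost region within 100 kb (MMP2, MMP15, MMP17, MMP24, TIMP3, ADAM19 and ADAM33) and 5 a gained one (MMP11, MMP13, MMP14, MMP17 and MMP20).

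**Figure D2:**
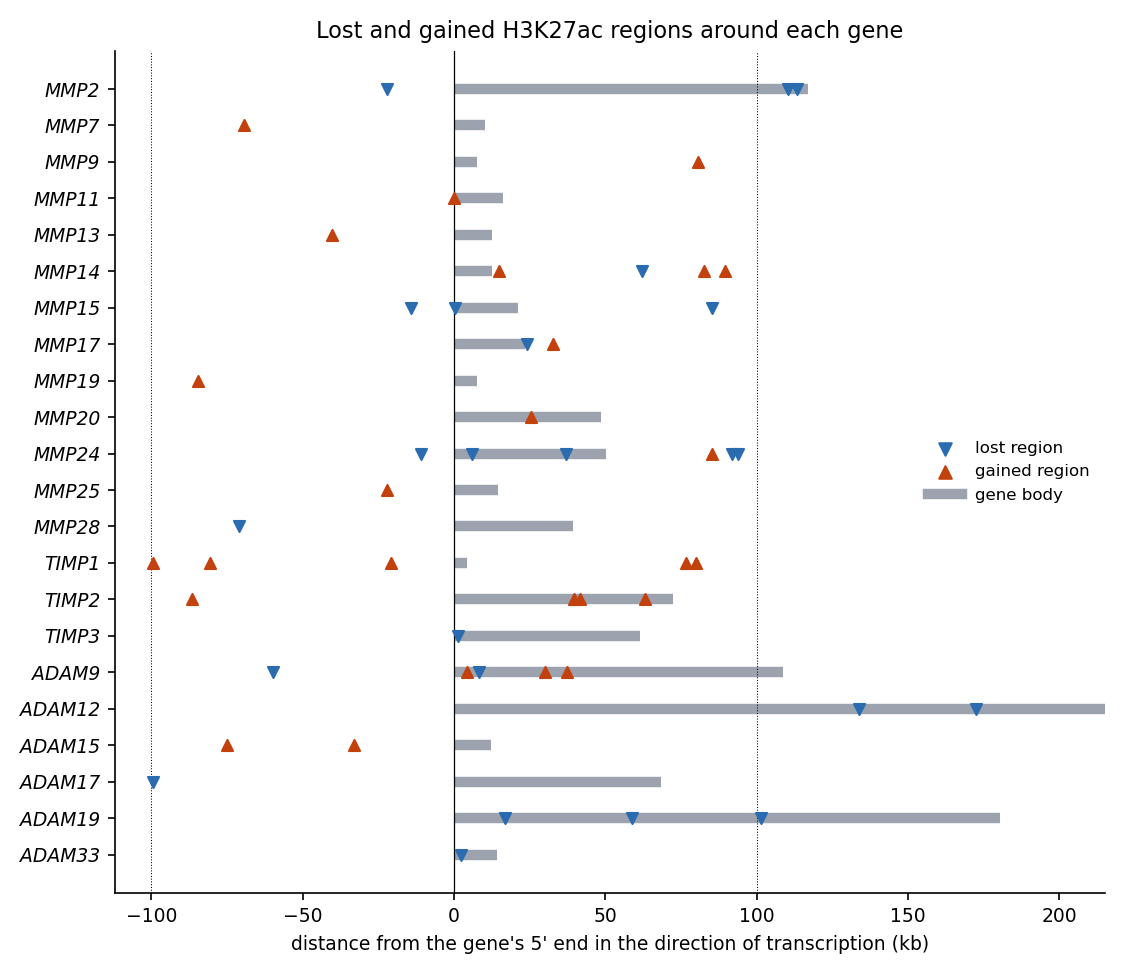
Lost (blue, pointing down) and gained (orange, pointing up) regions around the 22 genes that had any, placed by distance from the gene's 5′ end in the direction of transcription (kb). Grey bars are gene bodies, that of ADAM12 running past the right edge, and dotted lines mark 100 kb. MMP2, ADAM12 and ADAM19 carried lost regions deep in the body, while the 5 gained regions around TIMP1 all lay outside the gene.

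Of the gelatinases, which degrade denatured collagen and basement membrane, MMP2 carried lost regions and MMP9 did not. MMP2 (ENSG00000087245.13, chr16:55389700-55506691, plus strand) had 2 lost regions near its 3′ end, chr16:55499311-55500984 in intron 11 and chr16:55502518-55503733, which spans exon 12 and the parts of introns 11 and 12 beside it. Each held 1 TEAD match, that of the second within the coding sequence of exon 12, as shown above. By outermost gene starts the nearest protein-coding 5′ end was that of LPCAT2, 8088 and 5339 bp away, although a shorter MMP2 transcript is annotated to start 1642 bp from the second region. A further lost region, chr16:55366791-55368542, lay 21158 bp upstream of the 5′ end of MMP2 and had 1 TEAD and 1 AP-1 match. The annotated 5′ end is 89498 bp upstream of that of the canonical transcript, from which the same 3 regions lie 20113 bp and 23320 bp downstream and 110656 bp upstream. The nearest gained region was 1219 kb away. For MMP9 the nearest region was gained, at the 5′ end of NCOA5 80.1 kb away.

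The membrane-type enzymes, which act at the cell surface and of which MMP14 activates proMMP2, had most of the lost regions among the MMPs. MMP15 (ENSG00000102996.5, chr16:58025754-58046901, plus strand) had the region closest to a start, chr16:58025873-58026072, which is 200 bp long and begins 119 bp downstream of the 5′ end in the untranslated part of exon 1. This is the shortest width in the lists. Its GC content was 78.5% and its CpG observed/expected ratio 0.962, whereas the medians over all lost regions were 46.8% and 0.202. A second lost region lay 13.4 kb upstream (chr16:58010956-58012382), with 1 TEAD and 1 AP-1 match, and another 84.7 kb downstream. No gained region came within 260 kb of MMP15.

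MMP24 (ENSG00000125966.10, chr20:35226690-35276998, plus strand) had 5 lost regions within 100 kb, the most of any member. They were chr20:35214924-35216593 upstream, chr20:35232020-35233466 in intron 1, chr20:35263449-35264282 over coding exon 5, and the abutting pair chr20:35317344-35320064 and chr20:35320065-35321234, which lies 90.7 kb downstream and is nearest to FAM83C. A gained region (chr20:35310891-35313065) with 3 AP-1 matches ended 4278 bp before that pair. The upstream lost region and those in intron 1 and over exon 5 also lie in another protein-coding gene, MMP24OS. The 5′ end of MMP24OS, 13849 bp away, is the nearest protein-coding one to the region over exon 5.

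At MMP14 and MMP17 both directions were present. The gained region nearest to MMP14 (ENSG00000157227.14, chr14:22836560-22849041, plus strand), chr14:22850608-22852228, began 14048 bp downstream of the 5′ end, past the 3′ end of the gene, and MMP14 had the closest 5′ end to it. A lost region followed at 61.4 kb, nearest to REM2, and then 2 gained ones at 81.7 and 89.4 kb, nearest to RBM23 and PRMT5. Beyond the 3′ end of MMP17 a lost region (chr12:131852048-131853329) and a gained one (chr12:131860507-131861645) were 7177 bp apart, and MMP17 had the closest 5′ end to both. MMP25 had 1 gained region, 21.6 kb away at HCFC1R1, and MMP16 had none within 100 kb.

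MMP11, a stromelysin-related enzyme of stromal cells, was the only member with a gained region at the 5′ end. The region, chr22:23768019-23768451, is 433 bp long, overlies the 5′ end of the gene (ENSG00000099953.10, chr22:23768226-23784316, plus strand) and lies 47 bp from that of CHCHD10, which is named because of this position. The canonical transcript of MMP11 starts 4623 bp further downstream, 4398 bp from the region, so that the region belongs to the start of a longer transcript and stands as close to another gene.

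The 9 clustered genes of chromosome 11 (MMP7, MMP20, MMP27, MMP8, MMP10, MMP1, MMP3, MMP12 and MMP13) include the interstitial collagenases MMP1, MMP8 and MMP13, the stromelysins MMP3 and MMP10, the matrilysin MMP7 and the metalloelastase MMP12. They span 435 kb, chr11:102520508-102955732, all on the minus strand. No lost region and 2 gained regions lay in this span extended by 100 kb on both sides. One was chr11:102599010-102601015 in intron 6 of MMP20, the tooth enamel enzyme, 24.3 kb from its 5′ end and 68.3 kb from that of MMP7, and it held the 3 AP-1 matches shown above. The other, chr11:102995176-102996824, lay 39.4 kb upstream of MMP13 outside the row of genes and held 2 AP-1 and 2 TEAD matches. Between them, the 5′ ends of MMP1, MMP3, MMP8, MMP10, MMP12 and MMP27 were 105 to 197 kb from the nearest gained region and 1018 to 1188 kb from the nearest lost one. The nearest lost region to the locus was 833 kb away on the side of lower coordinates and 6590 kb away on the other. On the lower side the next 3 listed regions, all gained, were those at YAP1, named for this position, whose 5′ end is 410 kb from the locus.

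**Figure D3:**
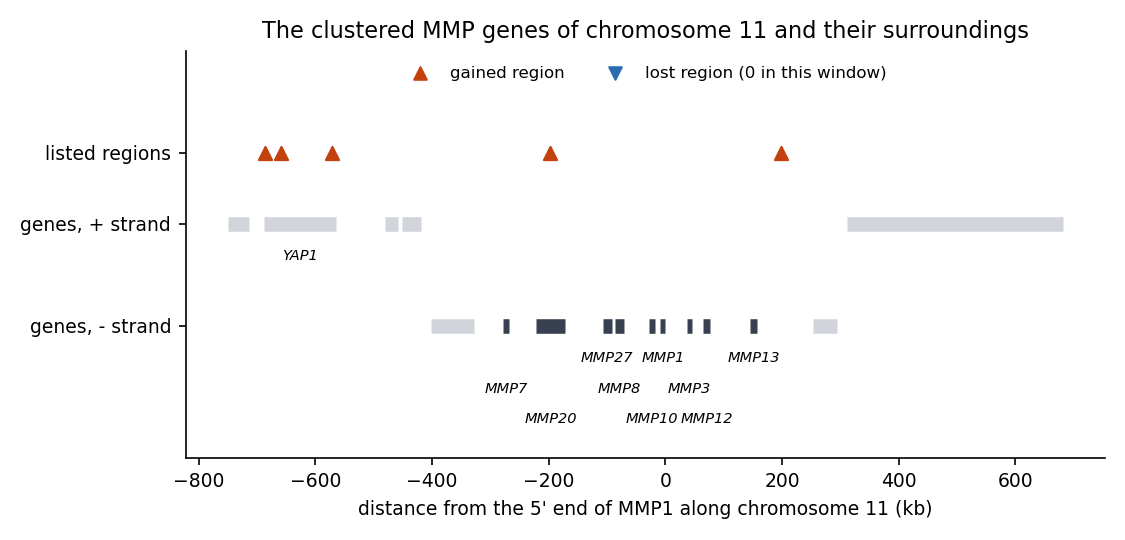
The MMP cluster of chromosome 11 by distance from the 5′ end of MMP1 along the chromosome (kb), with members in dark grey and other protein-coding genes in light grey. All 5 listed regions in the window are gained (orange), 3 of them at YAP1, 1 in MMP20 and 1 upstream of MMP13.

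Of the remaining MMPs, MMP19 had 1 gained region within 100 kb, at the 5′ end of DGKA 83.4 kb away, and MMP28 had 1 lost region 70.8 kb away, nearest to HEATR9.

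The 4 inhibitors differed from each other. TIMP3, which binds to the matrix and blocks ADAM17 as well as MMPs, had a lost region of 2775 bp, chr22:32801730-32804504, that began 25 bp downstream of its 5′ end (ENSG00000100234.12, chr22:32801705-32863041, plus strand) and covered the rest of exon 1 and part of intron 1. It was the widest lost region within the body of a member, and it also lies in another protein-coding gene, SYN3. Its 2 TEAD matches are in intron 1, as shown above, and no gained region came within 242 kb. The 250 bases upstream of the start that RefSeq (GRCh38.p14) gives for TIMP3 and for MMP15, which both lie just before a lost region, follow on the plus strand with the SP/KLF matches (GGGCGG, or CCGCCC on the other strand) in capitals. Each held 5. Of the 27305 promoters in that table, from 250 bp before to 50 bp after the start, 44.6% held at least 1, and among the members ADAM15 held 6 and MMP11 4 with no lost region nearby, so that such matches are not particular to TIMP3 and MMP15. Neither stretch overlaps the lost region itself.
TIMP3, chr22:32801455-32801704: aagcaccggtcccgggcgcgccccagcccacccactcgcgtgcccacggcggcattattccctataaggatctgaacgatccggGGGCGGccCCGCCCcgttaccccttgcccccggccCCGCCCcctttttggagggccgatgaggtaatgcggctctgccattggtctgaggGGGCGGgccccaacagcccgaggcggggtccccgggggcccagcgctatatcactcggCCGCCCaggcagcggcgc
MMP15, chr16:58025504-58025753: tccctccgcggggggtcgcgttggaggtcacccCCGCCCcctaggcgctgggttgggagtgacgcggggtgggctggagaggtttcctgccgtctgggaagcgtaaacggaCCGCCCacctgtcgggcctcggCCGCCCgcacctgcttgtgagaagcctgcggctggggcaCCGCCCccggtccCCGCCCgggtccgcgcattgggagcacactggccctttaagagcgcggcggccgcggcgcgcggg

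TIMP2, which inhibits MMPs and also takes part in the activation of proMMP2 by MMP14, had 3 gained regions in its body (ENSG00000035862.13, chr17:78852977-78925387, minus strand), and its nearest lost region was 244 kb away. An abutting pair, chr17:78882839-78884838 and chr17:78884839-78886917, was in intron 1, each with 1 AP-1 match. The third, chr17:78860418-78864196 in intron 3, was 3779 bp wide, the widest of the gained regions counted for members, with 2 AP-1 and 2 TEAD matches. The nearest protein-coding 5′ ends to these regions were those of CEP295NL and USP36, and another gained region lay at CANT1, 85.9 kb upstream. TIMP1, the inhibitor most closely associated with liver fibrosis, had 5 gained regions within 100 kb, between 20.3 and 98.6 kb away. The nearest protein-coding 5′ ends to them belonged to ZNF41, ARAF and UXT and none to TIMP1, and the closest lost region was 3329 kb away. TIMP4 had no region of either kind within 553 kb.

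Lost regions in the body were found for 4 of the 9 ADAM genes (44.4%, against 6.66% of protein-coding genes) and gained ones for 1 (11.1%, against 10.9%). Of those with a lost region, ADAM9, ADAM12 and ADAM19 are long, at 109, 376 and 180 kb, and ADAM33 is short, at 14.3 kb. ADAM10, at 161 kb, had none, and the median over all protein-coding genes is 27.4 kb. The part of gene length in this share was not tested. ADAM12, a marker of activated stellate cells and other stromal cells, had 2 lost regions in intron 3, chr10:126214777-126217305 with 2 TEAD matches and chr10:126253789-126255338 with 1 (ENSG00000148848.15, chr10:126012381-126388477, minus strand). They lie 171 and 133 kb downstream of its 5′ end, so that ADAM12 had no region within 100 kb although its own 5′ end is the nearest protein-coding one to both. ADAM12 is also the longest member, at 376 kb, and the nearest gained region was 1342 kb away.

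ADAM19, which sheds neuregulin, had 3 lost regions over 180 kb of gene (ENSG00000135074.16, chr5:157395534-157575775, minus strand), and its nearest gained region was 808 kb away. They were chr5:157557695-157559943 in intron 3 and chr5:157516367-157517695 in intron 7, each with 1 AP-1 match, and chr5:157474035-157474387, which lies in the gene beyond the canonical transcript. The last also lies in another protein-coding gene, NIPAL4, whose 5′ end is the nearest to it. In ADAM33 (ENSG00000149451.19, chr20:3667965-3682246, minus strand), a gene expressed in mesenchymal cells, the lost region chr20:3679375-3680681 began 1565 bp downstream of the 5′ end and spanned exon 2 with the adjoining parts of introns 1 and 2. Its 2 TEAD matches and its 1 AP-1 match are those of the stretch shown above, and it also held 2 SP/KLF matches and 1 NF-kB match.

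ADAM9 was the mixed case. Going downstream from its 5′ end (ENSG00000168615.13, chr8:38996754-39105445, plus strand), intron 1 had a gained region at 3448 bp and a lost one at 7448 bp, with 1 TEAD match in the lost one and a gap of 2000 bp between them, the smallest between regions of opposite direction at any member. The other 2 gained regions lay 29.2 kb downstream over coding exon 11 and 37.1 kb downstream in intron 11, and another lost region lay 57.7 kb upstream, nearest to PLEKHA2. By outermost gene starts, the nearest protein-coding 5′ end to the 4 regions in the body was that of TM2D2, although an ADAM9 transcript start is annotated 1050 bp from the lost region in intron 1 and another 1168 bp from the gained region in intron 11. The margin was small, as TM2D2 was 3378, 7378, 29177 and 37062 bp away. From the canonical start of ADAM9 the same regions lay 3229, 7229, 29028 and 36913 bp away. ADAM9 was therefore not among the members counted by their own nearest 5′ end. The shedding enzymes ADAM10 and ADAM17 had no region in the body. ADAM17, which releases TNF, had a lost region 98.2 kb away, nearest to YWHAQ, and the nearest to ADAM10 was a lost one 201 kb away. ADAM15 had 2 gained regions upstream, the nearer 32.1 kb away and nearest to ZBTB7B, the other at the 5′ end of CKS1B. ADAM8 and ADAM28 had none within 100 kb.

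In total 11 members had no region at any of the 3 distances, which were MMP1, MMP3, MMP8, MMP10, MMP12, MMP16, MMP27, TIMP4, ADAM8, ADAM10 and ADAM28. That is 33.3% of the members, against 55.1% of protein-coding genes. Over the 33 genes the median distance from the 5′ end was 244 kb to the nearest lost and 126 kb to the nearest gained region, and over all protein-coding genes 360 and 235 kb. A lost region was nearer than a gained one for 13 members (39.4%), against 40.2% of protein-coding genes.

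**Figure D4:**
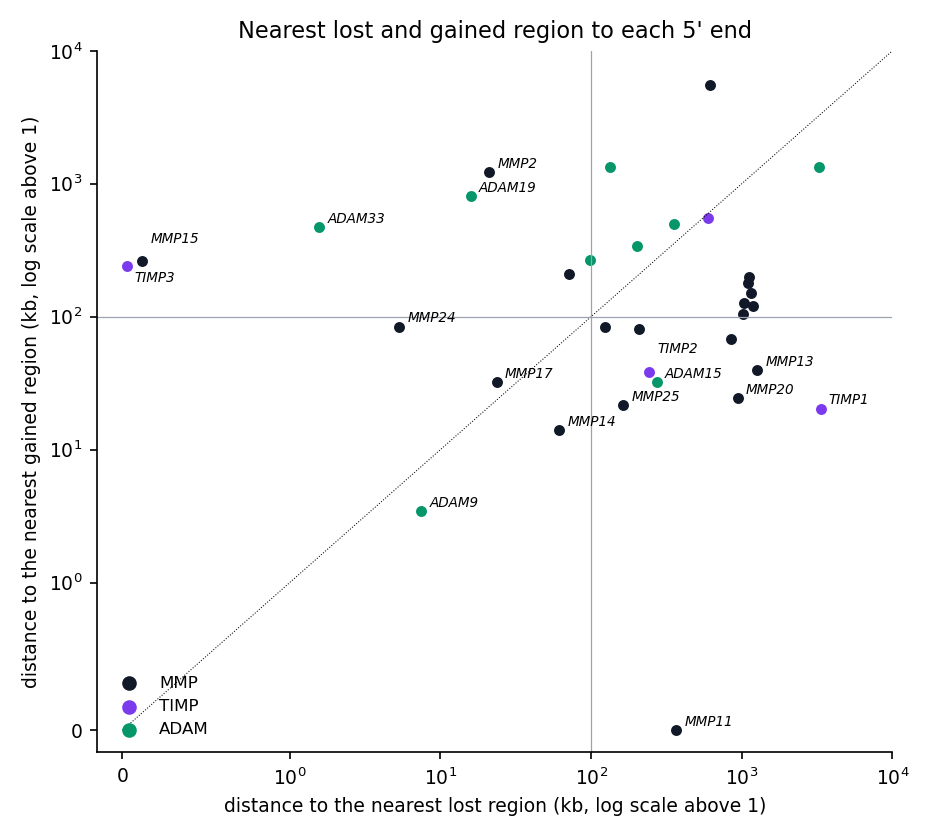
Distance from each member's 5′ end to the nearest lost (horizontal) and nearest gained region (vertical), in kb, on axes that are logarithmic above 1 kb and linear below, with grey lines at 100 kb and a dotted line of equal distance. TIMP3, MMP15, ADAM33, ADAM19 and MMP2 stand at the upper left, close to a lost region and far from any gained one, and TIMP1 and the chromosome 11 genes on the right.

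The lost regions at the members were narrower than those of the whole list, and both kinds had more GC. The median width was 1392 bp for the 24 lost and 1649 bp for the 25 gained regions, and 1905 and 1697 bp over all listed regions. Median GC content was 50.1% and 52.1%, above the 46.8% and 46.1% of the whole lists. For the 13 lost and 8 gained regions within the genes or at their 5′ ends it was 50.4% and 45.3%. The higher GC of gained regions was thus not seen within the genes. A region of the opposite direction with its centre within 50 kb was present for 7 lost (29.2%) and 9 gained regions (36%), against 10.8% and 9.36% over the lists. These came from MMP14, MMP17, MMP24 and ADAM9, with further ones at MMP19 and ADAM9 whose opposite neighbour was itself not counted for a member.

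A TEAD match was present in 11 of the 24 lost regions (45.8%) and in 4 of the 25 gained ones (16%), where the shares over all lost and all gained regions were 42.9% and 27.5%. The share in lost regions was near that of the list. Of the regions within the genes or at their 5′ ends, 7 of 13 lost (53.8%) and 1 of 8 gained ones (12.5%) held one. In the central 1000 bp, 4 of these 13 lost regions did (30.8%). The core CATTCC without its flanking letters was in 16 lost (66.7%) and 17 gained regions (68%), with no such gap between the directions. In the central 1000 bp of each region the longer word was in 6 lost (25%) and 4 gained regions (16%), against 30.7% and 16.3% of the lists, so that the gap was smaller there and the lost share was below that of the list. AP-1 matches were present in 8 lost (33.3%) and 10 gained regions (40%), against 42.6% and 39.6%. Of the regions within the genes or at their 5′ ends, 3 of 13 lost (23.1%) and 5 of 8 gained ones (62.5%) held an AP-1 match. ETS matches (CCGGAA) were in 2 lost (8.33%) and 11 gained regions (44%), against 18.8% and 31%, and SP/KLF matches in 7 lost (29.2%) and 15 gained ones (60%), against 33.9% and 42.9%. Within the genes or at their 5′ ends, SP/KLF matches were in 5 of 13 lost (38.5%) and 3 of 8 gained regions (37.5%). RUNX matches (TGTGGT) were in 17 lost (70.8%) and 13 gained (52%), near the shares of the lists (68.1% and 60%). NF-kB matches were in 2 lost (8.33%) and 6 gained regions (24%), against 24.8% and 20.4%, and SRF matches in 2 lost (8.33%) and 3 gained ones (12%), against 14.7% and 7.76%. The ATF4-C/EBP word TGATGCAA was in 1 lost (4.17%) and 2 gained regions (8%), against 4.36% and 10.1%. Each motif was counted on its own, so that 1 stretch can count for more than 1 of them. A wider region has more room for a match, and a match describes letters and not a bound factor.

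**Figure D5:**
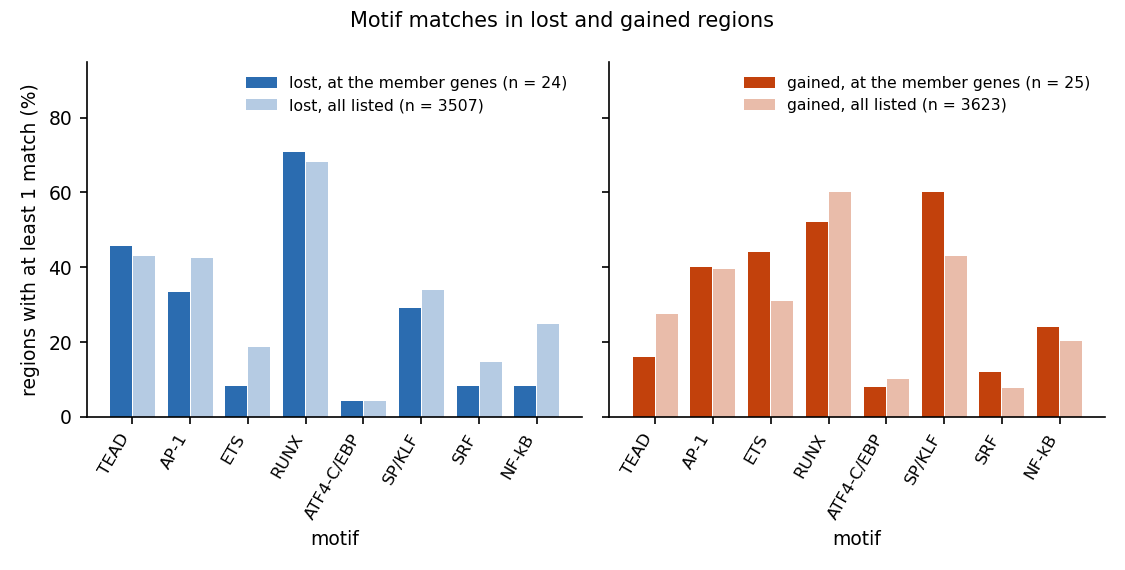
Share of regions (%) with at least 1 match to each of the 8 motifs, for the members' lost (left, dark blue) and gained regions (right, dark orange), with all listed regions of the same direction in pale. TEAD matches were in 45.8% of the members' lost regions and in 16% of their gained ones, against 42.9% and 27.5% over the lists.

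The promoter sequences of 18 of the 33 genes were found in the RefSeq table. None held a TEAD match (4.11% of all promoters), and 1 held an AP-1 match (MMP7, 4.92% of all promoters). An SP/KLF match was held by 12 (66.7%, against 44.6% of all promoters). Only the TIMP3 window overlapped a listed region, over 25 bp.

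Proteins that activate, anchor or inhibit these enzymes were looked up in the same way as 25 further genes. None had a lost region within 2500 bp of the 5′ end, and 2 (8%, against 6.39% of protein-coding genes) had a gained one. These were CD44, a hyaluronan receptor that docks MMPs at the cell surface, with 4 gained regions in the body and the nearest 1604 bp from the 5′ end, and RHBDF1, an iRhom that accompanies ADAM17, with 2. In the body, 2 had a lost region (8%, against 6.66%, TSPAN5 and THBS2) and 5 a gained one (20%, against 10.9%), among them RHBDF1, CD44, TSPAN5 and TSPAN14. TSPAN5 and TSPAN14 are tetraspanins that escort ADAM10. Within 100 kb, 6 (24%, against 20.4%) had a lost and 12 (48%, against 29.5%) a gained region. The matrix proteins THBS1 and THBS2 had 1 and 4 lost regions there, the nearest at 75.8 and 24.4 kb, and THBS2 also had a gained one at 36.8 kb. The shares of this list were thus near the background, apart from those of gained regions in the body and within 100 kb, which were above it. RECK, BSG, PLG, A2M, PCSK5, PCSK6, RHBDF2, TSPAN15 and TSPAN17 had no region in the body or within 100 kb.

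The 15 MMP and ADAM genes outside the set, such as MMP21, ADAM2 and ADAM22, had no lost region at any of the 3 distances, where 20.4% of protein-coding genes had one within 100 kb, and 3 (20%, against 29.5%) had a gained region within 100 kb, MMP23B, ADAM11 and ADAM32.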

How the data were processed

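H3K27ac ChIP-seq was performed in LX-2 cells treated with vehicle or OSMI-1, 4 replicates per arm. As the study describes it, the authors mapped reads to hg38 with Chromap, called peaks per replicate against input DNA with MACS2 (version 2.1.1.20160309 in the submitters' processing notes), divided the peaks into bins of typically 2000 bp and tested OGTi against control with MAnorm2. The deposited values used here are positions in bp of the 2 resulting lists, without signal or read depth. The lists' names give an adjusted p threshold of 0.15, the text of the methods a lower one, and which regions pass the latter cannot be told. Wide peaks cut into bins can appear as several abutting regions.

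Starts were converted to count from 1. Genes came from GENCODE release 44 (the study used an earlier one) and places within genes from the Ensembl canonical transcript. A region was counted for a gene when any base met the rule. Motif matches were counted once per position with pysam 0.24.0. The assignment was tested on simulated data. Members without regions are named. For members with regions only within 100 kb the rule asked for counts and nearest distances, and the coordinates of the regions around MMP13, MMP14 and MMP17 were added after they were seen. A gene outside the lists is named when its 5′ end is the nearest to a counted region, and CHCHD10, SYN3 and YAP1 were added after their positions were seen. The members, lists and rules were chosen with earlier results of these data known. An item of the list of further genes is not reported here by name. Regions that did not change and predicted enhancer-promoter links were not used here.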

Additional observations from a re-analysis of the deposited data

How the results depend on the processing

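Counts in the gene body were the same when the centre or at least 50% of a region had to lie in the gene. Where every annotated transcript start was used, 5 members instead of 3 had a lost region within 2500 bp (MMP2 and ADAM9 in addition, with 3.44% of protein-coding genes) and 2 instead of 1 a gained one (ADAM9 in addition, with 8.21%). A window of 5000 bp also gave 2 members with a gained region, and the share of all protein-coding genes was not computed for it. With the canonical transcript's 5′ end, an alternative chosen after seeing the data, 0 members had a gained region within 2500 bp, since the start of MMP11 moves away, and 3 had a lost one. The shares of protein-coding genes were then 6.62% for gained and 2.06% for lost regions. Counting within 100 kb only regions nearest to the member's own 5′ end left 7 instead of 11 members with a lost and 5 instead of 14 with a gained region. The share of all protein-coding genes was not computed under this rule, so that the changed order of the directions cannot be read as particular to the members. A TEAD match was present in the central 1000 bp of 6 instead of 11 lost regions (25%, against 30.7% of the list) and of 4 gained ones as before (16%, against 16.3%). The core CATTCC alone was in 17 instead of 4 gained regions and in 16 lost ones. The gap between lost and gained regions shrank with the first and was gone with the second. The other alternatives moved no count or median by more than 1.5 times. A stricter threshold and leaving out a replicate could not be run on lists of positions. No paired analysis was possible because no replicate values come with the regions. Depth is unknown, so that small changes may be missing from the lists.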
